A study of Mus musculus with 18 samples.

Results

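The 10 genes described here encode 4 DOCK exchange factors (Dock2, Dock8, Dock10 and Dock11), 2 ELMO adaptors (Elmo1 and Elmo2) and 4 small GTPases (Rac1, Rac2, Cdc42 and Rhoh). They were found by gene symbol among the 46983 genes of the deposited expression table, and all 10 were present and passed the filter on low values. The RNA came from mouse CD8 T cells sorted into memory-phenotype cells with high surface CD44 and naive cells with low surface CD44. The 18 libraries formed these groups: memory cells of Dock2-deficient mice (5 libraries), memory cells of wild-type mice (4), naive cells of Dock2-deficient mice (5) and naive cells of wild-type mice (4). The Dock2-deficient mice were homozygous for the Hsd allele of Dock2. The strain field of the labels read C57BL/6J throughout, but the mutants' descriptions carried C57L6NHsd, so genotype and substrain cannot be told apart. No treatment and no age were given, and nothing in the labels said that the numbered replicates were separate animals. The p-values therefore measure only the spread between these libraries, which may be technical.

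DOCK proteins load small GTPases with GTP, the step that switches these GTPases on at the membrane. In lymphocytes DOCK2 activates Rac1 and Rac2 downstream of chemokine receptors and the T cell receptor, and the ELMO1 adaptor holds DOCK2 in its active complex. DOCK8, DOCK10 and DOCK11 act mainly on Cdc42, DOCK10 also on Rac, and lymphocytes without DOCK2 migrate poorly. The Hsd allele was described in C57BL/6NHsd colonies as a duplication within the gene that abolishes the protein. A value per gene sums reads over all exons, so it checks neither the duplication nor the protein.

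By annotation on mm10 (GENCODE M21), the exchange factors were Dock2 (ENSMUSG00000020143, chr11:34226815-34783892, minus strand), Dock8 (ENSMUSG00000052085, chr19:24999534-25202432, plus strand), Dock10 (ENSMUSG00000038608, chr1:80501073-80758527, minus strand) and Dock11 (ENSMUSG00000031093, chrX:35888832-36076562, plus strand). The adaptors were Elmo1 (ENSMUSG00000041112, chr13:20090596-20608353, plus strand) and Elmo2 (ENSMUSG00000017670, chr2:165288031-165326479, minus strand). The GTPases were Rac1 (ENSMUSG00000001847, chr5:143503634-143528036, minus strand), Rac2 (ENSMUSG00000033220, chr15:78559167-78572783, minus strand), Cdc42 (ENSMUSG00000006699, chr4:137319696-137357720, minus strand) and Rhoh (ENSMUSG00000029204, chr5:65861213-65896700, plus strand). RHOH is a blood-cell GTPase that hydrolyses no GTP and is needed for T cell receptor signalling.

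The 250 bases before the RefSeq start (build GRCm38.p6) of Dock2 and of Dock8 are shown because the results below turn on the ratio of these genes within a library. The Dock2 window is chr11:34783906-34784155 on the minus strand and the Dock8 window is chr19:24999279-24999528 on the plus strand. Capitals mark GGAA, or TTCC where the match is on the other strand, the core letters of ETS factor motifs.
Dock2: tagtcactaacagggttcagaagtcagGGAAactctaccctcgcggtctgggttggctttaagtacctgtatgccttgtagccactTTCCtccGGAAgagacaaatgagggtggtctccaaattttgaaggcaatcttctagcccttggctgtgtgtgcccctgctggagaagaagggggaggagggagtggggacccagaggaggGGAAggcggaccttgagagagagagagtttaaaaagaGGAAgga
Dock8: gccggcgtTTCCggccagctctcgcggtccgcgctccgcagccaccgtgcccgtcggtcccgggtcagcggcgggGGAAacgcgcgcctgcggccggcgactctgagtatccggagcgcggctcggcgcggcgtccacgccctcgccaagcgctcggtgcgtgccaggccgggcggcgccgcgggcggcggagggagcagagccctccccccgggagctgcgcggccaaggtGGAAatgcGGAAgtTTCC
Each window held 5 matches, and 18.03% of the 32851 promoters of the RefSeq table held at least as many in their own 250 bases. TGTGGT, searched on both strands as the core of Runx motifs, was not among the letters of either window and was found in 14.05% of promoters. The Dock2 window was 52.8% G and C and the Dock8 window 77.6%. A match is a description of letters and not a binding site. Of the 10 members, 8 had an entry in that table, and those without were Rac1 and Rac2.

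The libraries held 2215987 to 8257768 expected reads, of which a ribosomal RNA gene took 37.0% to 69.4%, which left 850659 to 2830471 reads for the other genes. Values are RSEM expected counts that the authors scaled between libraries, called normalized values below. Cd44 transcript followed the sort, at 172 to 222 in Dock2-deficient memory, 124 to 220.4 in wild-type memory, 0 to 21.7 in Dock2-deficient naive and 3.39 to 9.78 in wild-type naive libraries. All 6 CD8 T cell markers (Cd8a, Cd8b1, Cd3d, Cd3e, Cd3g and Cd2) passed the filter, and their summed value was 5523 to 12129 in the 18 libraries. The sums of the B cell, myeloid, NK, CD4 T and gamma delta T lists were at most 57.5, 44.5, 35.9, 28.0 and 45.7, and 1 of 5, 1 of 5, 1 of 4, 0 of 4 and 1 of 4 of their genes passed the filter. Pax5 and Cd14 were at 0 in all libraries of every group but wild-type memory, and Ncr1 was at 0 in all naive libraries. The NK sum was 1.78 to 17.4 in Dock2-deficient and 24.5 to 35.9 in wild-type memory libraries, and the gamma delta sum was 19.5 to 45.7 in Dock2-deficient and 3.63 to 5.65 in wild-type naive libraries. Their part in the results below was not tested. Xist was above 100 in all 8 wild-type libraries and in library 1 of each Dock2-deficient group, and at most 5.44 in the other Dock2-deficient libraries. Genotype and sex therefore mostly cannot be told apart, which touches Dock11 directly because it is X-linked. In these bulk samples, fewer cells expressing a gene and less of its RNA per cell cannot be told apart.

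Per kilobase of the longest annotated transcript, the GTPases spanned the whole range of levels. In wild-type naive cells Rac2, the Rac of blood cells, stood at 678 ± 157 normalized reads per kilobase (SD, n = 4) and Cdc42 at 322.2 ± 62.9. Dock8 followed at 93.7 ± 27.5, Rhoh at 81.5 ± 6.28, Elmo1 at 70.9 ± 19.7, Dock2 at 60.6 ± 15.7, Dock10 at 49.4 ± 20.9 and Dock11 at 44.3 ± 12.4. Elmo2, at 19.4 ± 5.20, and the widely expressed Rac1, at 15.4 ± 5.25, were lowest. Rac2 and Cdc42 were set apart from each other and from the rest by more than these SDs, while each neighbouring pair among the 6 genes between Dock8 and Dock11 lay within them, as did Elmo2 and Rac1. In Dock2-deficient naive cells Rac2 stood at 716 ± 98.0 and Rac1 at 14.6 ± 2.88 normalized reads per kilobase (SD, n = 5), and these were also the top and the bottom of the 10 members in both memory groups. Per kilobase of all exon bases Rac2 was again the top, but the lowest was Dock10 in memory cells, at 9.61 in Dock2-deficient and 17.3 in wild-type cells against 13.5 and 19.1 for Rac1, and Elmo2 in wild-type naive cells, at 13.7 against 14.2 for Rac1.

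Some levels are less certain than others because of how reads were assigned. Of the exon bases of Rac1, 51.4% also lie in Daglb on the opposite strand, and the library method did not mark strand, so reads of the pair cannot be told apart there. Daglb itself was listed at 0.874 to 18.6. Rac2 reads came out as whole numbers in 0 of 18 libraries and Rac1 reads in 1 of 18, as happens where RSEM shares reads between genes. Reads were whole in 17 of 18 libraries for Dock8, 8 for Dock2 and Elmo1, and 3 for Dock10. Within Dock2, on the opposite strand, lie Fam196b, with no shared exon bases, and 4930403D09Rik, which shares 4.03% of the Dock2 exon bases and was listed at 0 to 3.15. Fam196b averaged 20.7 ± 12.8 in Dock2-deficient and 36.1 ± 5.58 in wild-type memory cells, and 38.8 ± 19.1 in Dock2-deficient and 50.1 ± 9.83 in wild-type naive cells (SD, n = 5 and 4), with overlapping groups in both states.

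The study's first question, what loss of Dock2 does to CD8 T cells, begins with the Dock2 transcript itself. In memory cells Dock2 had 225, 207, 148, 279.6 and 61.0 normalized reads in the Dock2-deficient libraries, against 444, 459, 399.7 and 844 in the wild-type libraries. Every mutant library was below every wild-type one, with mutant library 5 the lowest and wild-type library 4 the highest of all 18. The means were 184 ± 83.4 in Dock2-deficient (SD, n = 5) and 537 ± 206 in wild-type cells (SD, n = 4). The log2 difference was −1.64 ± 0.36 (SE; 0.322-fold; 95% interval −2.38 to −0.89), with an adjusted p of 0.121 in limma over all 9437 genes, which did not pass the threshold of 0.05. Only 5 genes (0.053%) passed it in this comparison, while 1546 had an unadjusted p under 0.05. Without mutant library 5 and wild-type library 4 the difference was −1.04 (adjusted p = 0.509), so its size depended on these libraries. They held the most extreme values, so leaving them out had to shrink the difference.

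In naive cells Dock2 had 295.9, 202, 373, 174 and 171 normalized reads in the Dock2-deficient libraries, against 514, 422, 329.6 and 288 in the wild-type libraries. The groups overlapped, since mutant libraries 1 and 3 reached the wild-type range. The log2 difference was −0.71 ± 0.36 (95% interval −1.45 to 0.04; adjusted p = 0.841), in a comparison in which 13 genes (0.138%) passed. The difference between the memory and naive genotype effects on Dock2 was −0.93 ± 0.51 (adjusted p = 0.819), and 3 genes (0.0318%) passed that test. Transcript of the gene was thus present in all 10 Dock2-deficient libraries, at 61.0 to 279.6 normalized reads in memory and 171 to 373 in naive cells.

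**Figure D1:**
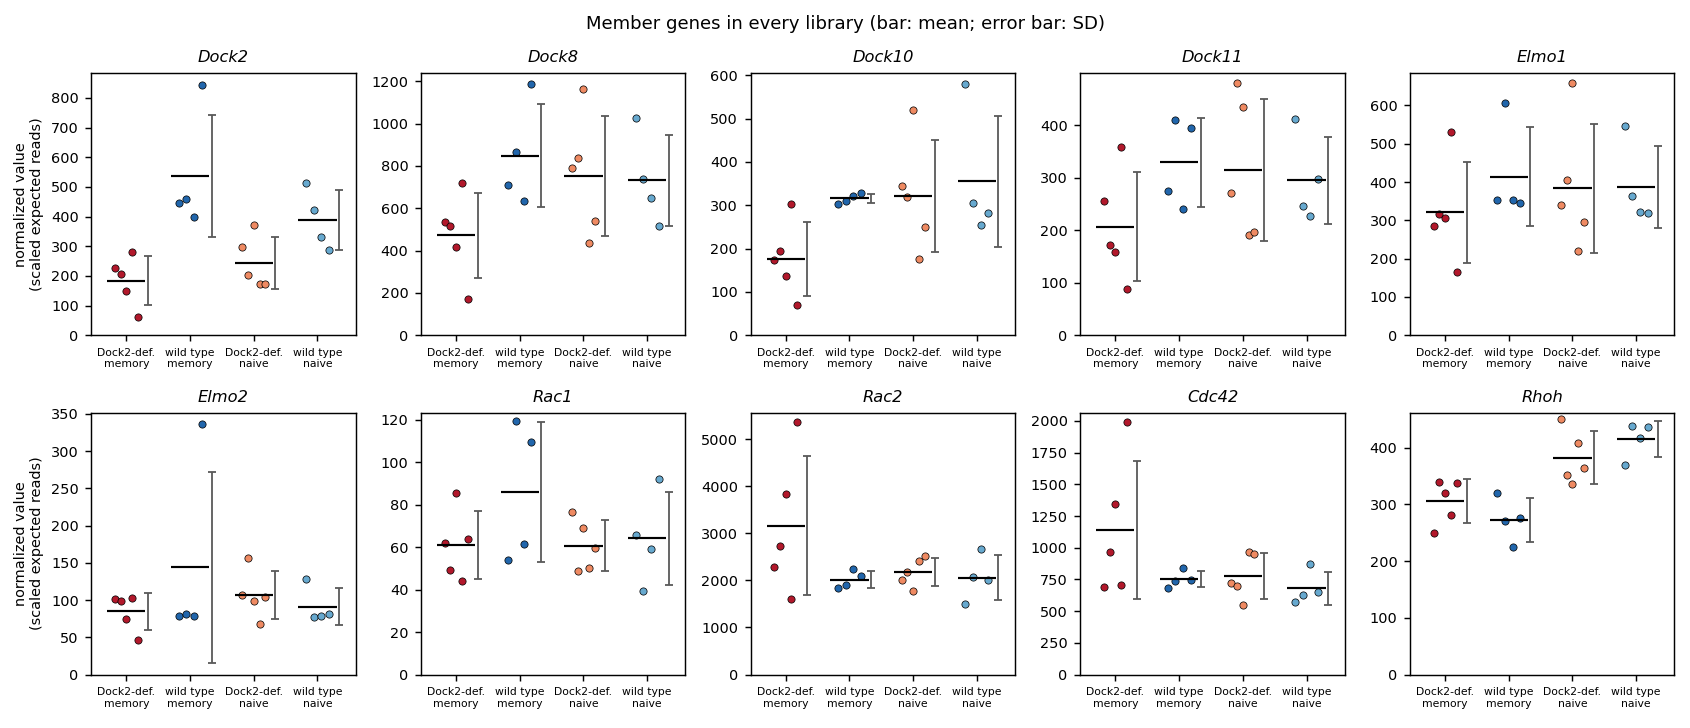
Normalized values (scaled expected reads, linear axes starting at 0) of the 10 members in each library, by group; horizontal bars are means and error bars are SD (n = 5 Dock2-deficient and 4 wild-type libraries per state). Dock2 and Dock10 of the Dock2-deficient memory libraries lie below those of all wild-type memory libraries, and Rhoh of the wild-type memory libraries lies below that of all wild-type naive libraries.

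Over the members as a set, 0 of 10 passed in memory cells in limma, where 3 had a log2 difference above 0 and 7 below, with a median of −0.47 against 0.01 over all genes. In naive cells 0 of 10 passed, 5 were above and 5 below 0, and the median was −0.02 against 0.00. An unadjusted p under 0.05 was reached by 4 members in memory cells, where 16.4% of all genes reached it, and by 0 in naive cells, where 6.1% did. The groups did not overlap for 2 members in memory cells, where 4.44% of all genes had groups apart in either direction, and for 0 in naive cells, where 2.71% had.

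The other DOCK genes stood on the same side of 0 as Dock2 in memory cells. Dock10 had 172, 195, 137, 303.05 and 69.6 normalized reads in Dock2-deficient memory libraries, against 303.7, 310.5, 322.3 and 327.5 in wild-type memory libraries. The wild-type values formed a narrow band above all 5 mutant values, the nearest of which was mutant library 4. The log2 difference was −0.997 ± 0.34 (adjusted p = 0.246). Dock8, whose loss causes a combined immunodeficiency in humans, had 534, 515, 418, 718 and 173 in Dock2-deficient and 709, 865, 634 and 1187 in wild-type memory libraries. These groups overlapped through mutant library 4, and the log2 difference was −0.94 ± 0.35 (adjusted p = 0.253). Dock11 had 256, 172, 158, 359 and 88.5 in Dock2-deficient and 274, 409.9, 239.8 and 394 in wild-type memory libraries, with overlap, at −0.79 ± 0.35 (adjusted p = 0.29). None of these differences passed the threshold. Without mutant library 5 the difference was −0.62 for Dock8 and −0.52 for Dock11.

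In naive cells the log2 differences of Dock8, Dock10 and Dock11 were 0.00, −0.15 and 0.02, with 95% intervals of −0.72 to 0.72, −0.87 to 0.57 and −0.70 to 0.75. Dock8 averaged 753 ± 284 normalized reads in Dock2-deficient (SD, n = 5) and 732 ± 214 in wild-type naive cells (SD, n = 4). The intervals leave room for changes of more than 1.5-fold in either direction in Dock8 and Dock11.

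Of the adaptors, Elmo1 had 286, 317.4, 305.9, 531 and 166 normalized reads in Dock2-deficient and 354, 607, 352 and 344 in wild-type memory libraries. The groups overlapped, and the log2 difference was −0.42 ± 0.31 (adjusted p = 0.495). Elmo2, a more widely expressed adaptor, had 101, 98.8, 74.1, 103 and 46.0 in Dock2-deficient and 78.8, 81.9, 78.6 and 336 in wild-type memory libraries. Wild-type library 4 alone was far above all others, and the log2 difference of −0.49 ± 0.37 (adjusted p = 0.501) became 0.03 (adjusted p = 0.976) without it. In naive cells the log2 differences were −0.08 for Elmo1 and 0.21 for Elmo2, with adjusted p of 0.9997 and 0.991.

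Among the GTPases, Rac2 had 2276, 2738, 3836, 1596 and 5372 normalized reads in Dock2-deficient and 1838, 1896, 2233 and 2083 in wild-type memory libraries. Mutant libraries 3 and 5 were the highest and mutant library 4 was the lowest, so the mutant group spanned the wild-type one. The log2 difference was 0.53 ± 0.28 (adjusted p = 0.335). Cdc42 had 689, 969, 1347, 703 and 1994 in Dock2-deficient and 686, 741, 838 and 749 in wild-type memory libraries, again with mutant libraries 3 and 5 highest, and a difference of 0.48 ± 0.27 (adjusted p = 0.366). Both sizes depended on the scaling and on mutant library 5. The Rac2 difference was 0.03 with quantile normalization, 0.23 with scaling to reads outside ribosomal RNA and mitochondrial genes, 0.30 with a term for Xist and 0.31 without mutant library 5. The Cdc42 difference was 0.18 with either scaling, 0.14 with a term for Xist and 0.25 without that library. Rac1 averaged 60.8 ± 16.0 in Dock2-deficient (SD, n = 5) and 86.0 ± 33.0 in wild-type memory cells (SD, n = 4), at −0.45 ± 0.29 (adjusted p = 0.425). Rhoh averaged 305.9 ± 38.9 in Dock2-deficient and 273 ± 38.9 in wild-type memory cells, at 0.16 ± 0.16 (adjusted p = 0.617). The naive log2 differences of Rac1, Rac2, Cdc42 and Rhoh were −0.04, 0.10, 0.18 and −0.12, and all 4 groups overlapped.

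**Figure D2:**
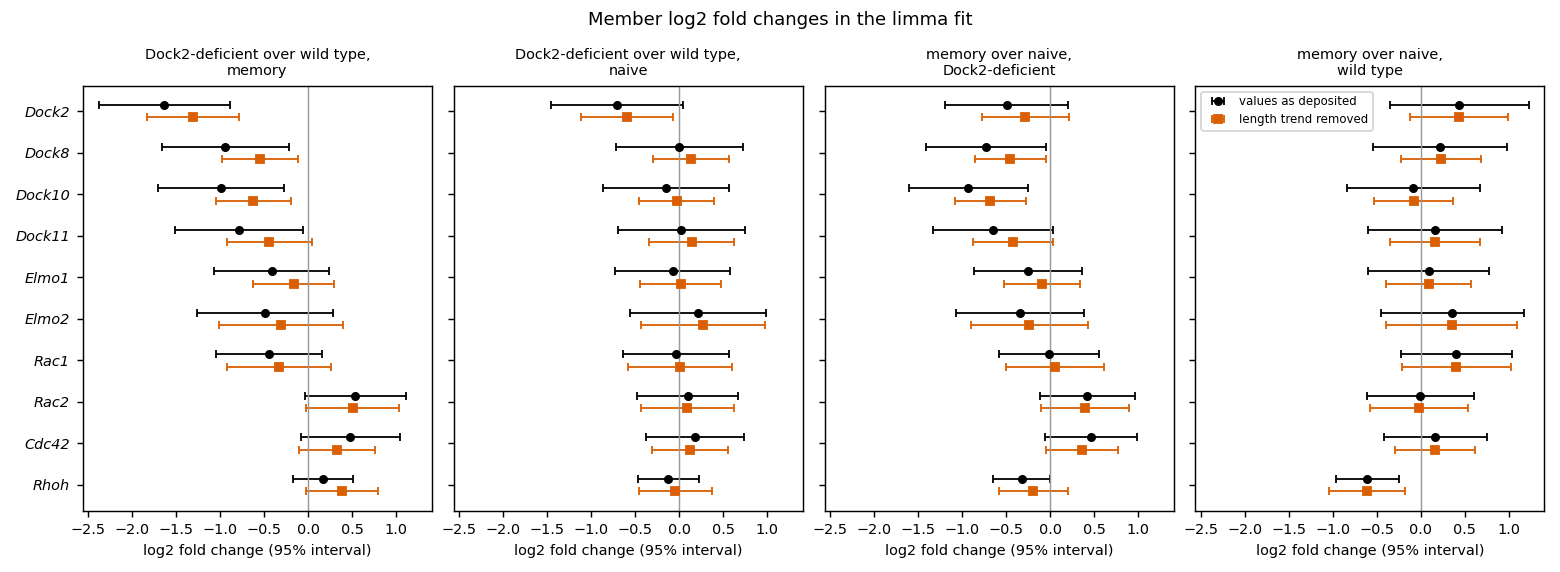
Log2 fold changes of the 10 members with 95% intervals in the limma fit, for Dock2-deficient over wild type in memory and naive cells and for memory over naive cells in each genotype; black circles are values as deposited and orange squares are values after the transcript-length trend of each library was removed. In memory cells Dock2 stands at −1.64 as deposited and −1.31 with the trend removed.

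From library to library several members moved as blocks. Over the 18 libraries the log2 values of Dock8 correlated with those of Dock10 (Pearson r = 0.93) and Dock11 (0.91), those of Dock2 with Dock8 (0.88), and those of Rac2 with Cdc42 (0.94), while Rac2 and Dock10 ran against each other (−0.90). Without the 2 libraries farthest from the median of the first gene these values were 0.92, 0.85, 0.72, 0.80 and −0.74, the last with Dock10 as the first gene. The points share their group structure, library and scaling, so the correlations are descriptions.

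The values of most members in these blocks also followed a property of the libraries. How much of their correlation goes with it was not tested. For each library, the deviation of every gene's log2 value from that gene's mean was set against the log2 length of its longest transcript over 9414 genes. The slope is above 0 where long transcripts are relatively high. It was −0.46 to 0.14 in Dock2-deficient memory, 0.01 to 0.15 in wild-type memory, −0.19 to 0.18 in Dock2-deficient naive and −0.08 to 0.30 in wild-type naive libraries. The member values followed the slope with r of 0.89 for Dock8, 0.94 for Dock10, 0.89 for Dock11, 0.87 for Elmo1 and 0.80 for Dock2, and ran against it with −0.95 for Rac2 and −0.94 for Cdc42. For Elmo2, Rac1 and Rhoh r was 0.47, 0.07 and −0.05. Without the 2 libraries of most extreme slope, r was 0.57 for Dock2, 0.86 for Dock10 and −0.91 for Rac2. After this length trend was removed from each library, Dock8 still correlated with Dock10 (0.78), Dock11 (0.75) and Dock2 (0.77). Rac2 still correlated with Cdc42 (0.91) and ran against Dock10 (−0.81). The longest transcripts of the 4 DOCK genes have 6409 to 7805 bases, that of Rac2 has 3038 and that of Cdc42 has 2108. Those of Elmo1, Rhoh, Elmo2 and Rac1 have 5464, 5093, 4695 and 4159 bases. Rhoh is thus longer than Elmo2 but had the lower r, so r did not follow the order of length over all members.

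**Figure D3:**
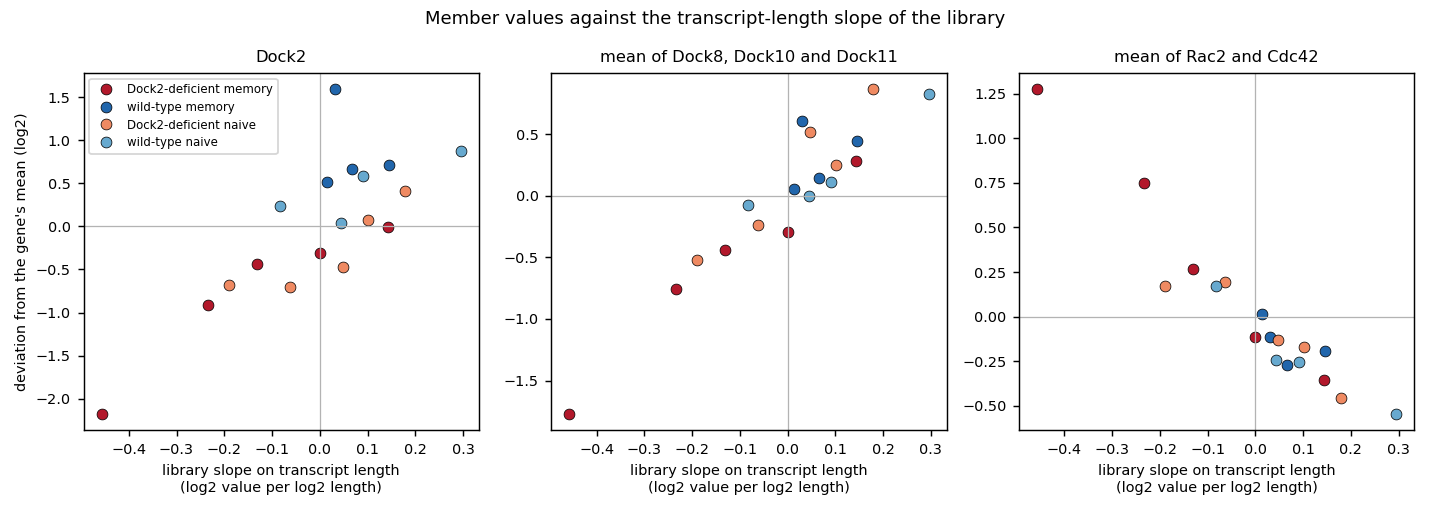
Deviation of member log2 values from the mean over 18 libraries (vertical axes) against the slope of each library on transcript length (horizontal axis, log2 value per log2 length), 1 point per library coloured by group. The DOCK genes run with the slope and Rac2 and Cdc42 against it, and Dock2-deficient memory library 5, with a slope of −0.46, lies at the end of each panel.

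With that trend removed from each library, Dock2 was the 1 member that passed, in 1 of the 5 comparisons. In memory cells its genotype log2 difference was −1.31 ± 0.25 (adjusted p = 0.0478 in limma), 1 of 8 genes (0.0848%) that passed with this setting. Those of Dock8, Dock10 and Dock11 were −0.55, −0.63 and −0.44, with adjusted p of 0.288, 0.244 and 0.384. The call on Dock2 was lost without mutant library 5 and wild-type library 4 (−0.84, adjusted p = 0.264). In naive cells the Dock2 difference with the trend removed was −0.59 ± 0.25 (adjusted p = 0.7). This setting was chosen after the values had been seen.

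A ratio of 2 long DOCK transcripts within a library is free of the scaling between libraries. Dock2 was therefore set against Dock8, a choice made after the values had been seen. In memory cells the ratio of Dock2 to Dock8 was 0.422, 0.403, 0.355, 0.389 and 0.352 in Dock2-deficient libraries, against 0.627, 0.531, 0.63 and 0.711 in wild-type libraries. In naive cells it was 0.374, 0.241, 0.321, 0.401 and 0.317 in Dock2-deficient libraries, against 0.502, 0.573, 0.508 and 0.555 in wild-type libraries. In both states every mutant library was below every wild-type library, and the highest mutant ratio of either state was below the lowest wild-type ratio of either state.

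The ratio averaged 0.384 ± 0.0304 in Dock2-deficient and 0.625 ± 0.0735 in wild-type memory cells, and 0.331 ± 0.0614 in Dock2-deficient and 0.534 ± 0.035 in wild-type naive cells (SD, n = 5 and 4). On the log2 scale the genotypes differed by −0.70 (0.616-fold) in memory and −0.71 (0.611-fold) in naive cells. Each gave p = 0.0159 in a two-sided exact permutation test, the smallest that 5 against 4 libraries allow, and 0.0544 after adjustment over the 12 ratio tests made, which did not pass 0.05. Between states the difference was 0.23 in Dock2-deficient cells (exact permutation p = 0.119) and 0.22 in wild-type cells (exact permutation p = 0.0857). Library 1 of each Dock2-deficient group, the mutant libraries with Xist, had 0.422 in memory and 0.374 in naive cells, the highest mutant ratio in memory, within the mutant range in naive cells and below all wild-type ratios.

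Across all genes, the same ratio to Dock8 was lower in every Dock2-deficient than in every wild-type library for 12 of 9436 genes (0.127%) in memory cells and for 96 (1.02%) in naive cells. Dock2 was the 1 gene (0.0106%) found in both states. Scaling to Dock8 put the median log2 difference of all genes between genotypes at 0.96 in memory and −0.002 in naive cells. A lower ratio was therefore harder to reach in memory cells for any gene, and Dock8 was chosen after the values had been seen. The share found in both states is a description and not separate evidence on Dock2. In a limma fit with each library scaled to Dock8, however, Dock2 did not pass, at −0.69 ± 0.27 (adjusted p = 0.0871) in memory cells and −0.71 ± 0.27 (adjusted p = 0.9999) in naive cells. With this scaling 5 genes (0.053%) passed in memory and 6 (0.0636%) in naive cells.

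**Figure D4:**
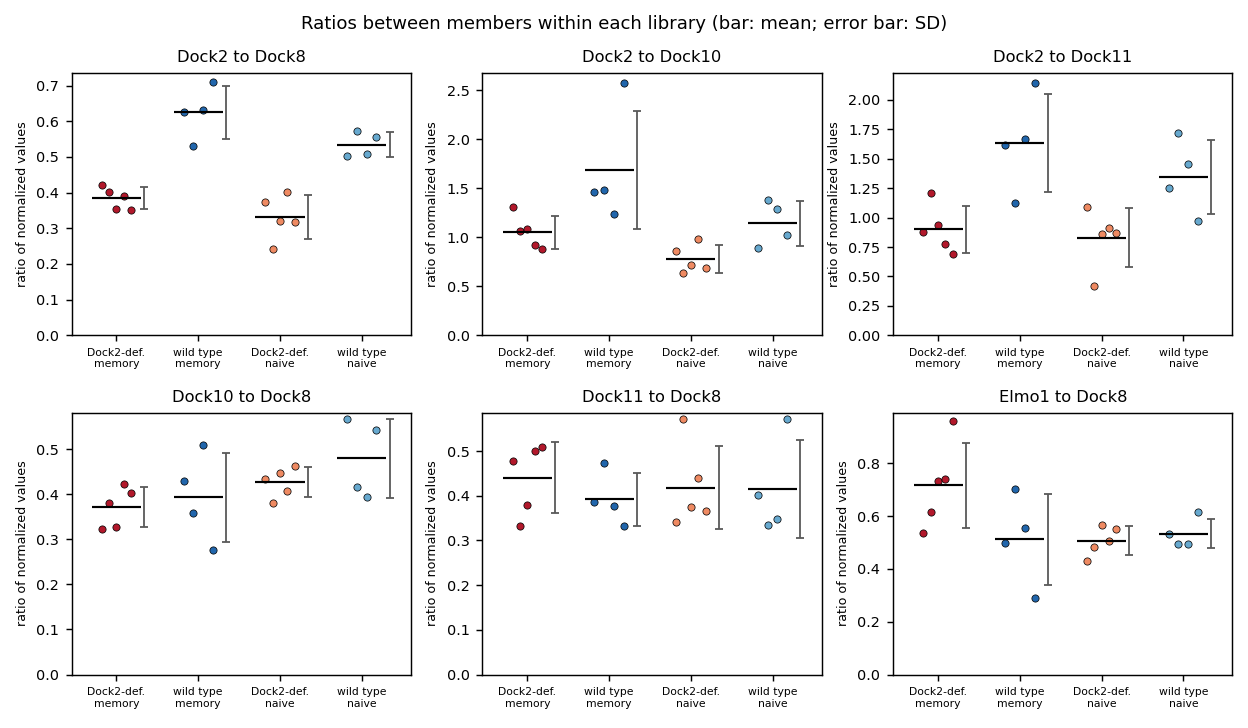
Ratios of normalized values between members within each library (linear axes starting at 0), by group; horizontal bars are means and error bars are SD (n = 5 Dock2-deficient and 4 wild-type libraries per state). The ratio of Dock2 to Dock8 is 0.352 to 0.422 in Dock2-deficient and 0.531 to 0.711 in wild-type memory libraries, while the genotypes overlap in the other 5 ratios shown.

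Other partners gave ratios of similar size with more spread. Dock2 to Dock10 averaged 1.05 ± 0.169 in Dock2-deficient and 1.69 ± 0.602 in wild-type memory cells, and 0.777 ± 0.144 in Dock2-deficient and 1.15 ± 0.23 in wild-type naive cells. Dock2 to Dock11 averaged 0.899 ± 0.197 in Dock2-deficient and 1.64 ± 0.417 in wild-type memory cells, and 0.831 ± 0.247 in Dock2-deficient and 1.35 ± 0.317 in wild-type naive cells. Each of these 4 genotype comparisons had overlapping groups and an exact permutation p of 0.0317 (0.0544 adjusted).

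Ratios of other members to Dock8 overlapped between genotypes in both states. Dock10 to Dock8 averaged 0.371 ± 0.0442 in Dock2-deficient and 0.393 ± 0.099 in wild-type memory cells, Dock11 to Dock8 0.44 ± 0.0793 in Dock2-deficient and 0.393 ± 0.0593 in wild-type memory cells. Elmo1 to Dock8 averaged 0.716 ± 0.16 in Dock2-deficient and 0.512 ± 0.171 in wild-type memory cells. Cdc42 to Rac2 was 0.303 to 0.441 in Dock2-deficient and 0.36 to 0.391 in wild-type memory libraries, and 0.306 to 0.403 in Dock2-deficient and 0.302 to 0.381 in wild-type naive libraries. The ratio of the haematopoietic to the ubiquitous Rac, Rac2 to Rac1, averaged 51.6 ± 19.9 in Dock2-deficient and 26.3 ± 10.3 in wild-type memory cells. Every mutant memory library was above every wild-type one, but mutant library 4 at 36.4 and wild-type library 3 at 36.3 almost met, the naive groups overlapped, and the read assignment of both genes is uncertain. This ratio was not tested.

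In the second comparison, memory against naive cells, the member with the lowest adjusted p was Dock10 in Dock2-deficient cells and Rhoh in wild-type cells. In wild-type cells Rhoh had 320.8, 270.1, 226 and 275 normalized reads in memory libraries, against 369, 438, 417 and 437 in naive libraries. Every memory library was below every naive library, which held for 1 of 10 members and for 8.27% of all genes in either direction. The log2 difference was −0.61 ± 0.17 (0.655-fold; adjusted p = 0.0687 in limma), short of the threshold that 238 genes (2.52%) passed. In Dock2-deficient cells Rhoh had 250.3, 339.8, 319.7, 282 and 338 in memory libraries, against 451, 352, 337, 409 and 364 in naive libraries. These groups overlapped slightly, through memory libraries 2 and 5 and naive library 3, and the log2 difference was −0.32 ± 0.15 (adjusted p = 0.372). The difference between the genotypes in this respect was 0.29 ± 0.23 (adjusted p = 0.822).

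None of the exchange factors passed in this comparison. Dock2, Dock8 and Dock11 lay below 0 in Dock2-deficient and above 0 in wild-type cells, and Dock10 lay below 0 in both. In Dock2-deficient cells Dock10 had 172, 195, 137, 303.05 and 69.6 in memory libraries, against 343, 319.1, 520.2, 176 and 249.7 in naive libraries, with overlap, at a log2 difference of −0.93 ± 0.32 (adjusted p = 0.171). It passed without memory library 4 (−1.17, adjusted p = 0.0422). In wild-type cells Dock10 averaged 316.00 ± 10.8 in memory (SD, n = 4) and 355 ± 151 in naive cells (SD, n = 4), at −0.09 ± 0.36 (adjusted p = 0.962). Dock2 gave −0.50 ± 0.34 in Dock2-deficient (adjusted p = 0.567) and 0.44 ± 0.38 in wild-type cells (adjusted p = 0.736). Dock8 gave −0.73 ± 0.33 in Dock2-deficient and 0.22 ± 0.36 in wild-type cells, and Dock11 gave −0.65 ± 0.33 in Dock2-deficient and 0.16 ± 0.37 in wild-type cells. The interaction tests of these 4 genes gave −0.95 to −0.81 and an adjusted p of 0.819 each, so a difference between genotypes was not shown.

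Over all members, 0 of 10 passed between memory and naive cells in Dock2-deficient mice in limma (3 had an unadjusted p under 0.05, as did 13.4% of all genes), where 266 genes (2.82%) passed, with 2 members above and 8 below 0 and a median of −0.33 against −0.01 over all genes. In wild-type mice 0 of 10 passed (1 had an unadjusted p under 0.05, as did 12.1% of all genes), 7 were above and 3 below 0, and the median was 0.16 against −0.02. In Dock2-deficient mice 0 members had groups that did not overlap, against 3.93% of all genes. The comparisons of states and of genotypes share their libraries, so they do not count as separate evidence. In Dock2-deficient cells the log2 differences were 0.42 for Rac2, 0.46 for Cdc42, −0.01 for Rac1, −0.25 for Elmo1 and −0.34 for Elmo2. In wild-type cells they were −0.01 for Rac2, 0.16 for Cdc42, 0.40 for Rac1, 0.09 for Elmo1 and 0.36 for Elmo2, and the groups overlapped for all 5 genes in both genotypes.

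The wider pathway was described with 126 further genes, of which 82 passed the filter. They included 7 other DOCK genes (2 tested), 4 other ELMO genes (3 tested), 28 exchange factors of other families (19), 30 GTPase inhibitors, that is GDIs and GAPs (24), 28 Rac and Cdc42 effectors (18) and 13 upstream lipid and G protein signalling genes (11). Between genotypes 0 of 82 passed in memory cells and 0 of 82 in naive cells in limma, where 20 and 6 had an unadjusted p under 0.05, shares of 24.4% and 7.32% against 16.4% and 6.1% of all genes. Between states 3 of 82 passed in Dock2-deficient cells (2 higher and 1 lower in memory), 3.66% against 2.82% of all genes. In wild-type cells 2 passed (1 higher and 1 lower), 2.44% against 2.52% of all genes, so both shares were near that of all genes.

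Arhgef3, an exchange factor for RhoA, rose in memory cells of both genotypes. It averaged 238 ± 36.8 in memory and 138 ± 23.1 in naive cells of Dock2-deficient mice (log2 difference 0.78 ± 0.18, adjusted p = 0.0145), and 241 ± 35.5 in memory and 128 ± 21.8 in naive cells of wild-type mice (0.91 ± 0.20, adjusted p = 0.0106). Arhgef11, an exchange factor that links G protein signals to RhoA, was lower in memory cells of both. It averaged 1.04 ± 1.54 in memory against 22.3 ± 18.2 in naive cells of Dock2-deficient mice (adjusted p = 0.00129 in limma). In wild-type mice it averaged 2.35 ± 2.37 in memory against 18.04 ± 3.78 in naive cells (adjusted p = 0.0272 in limma). Its memory values, 0 to 3.44 in Dock2-deficient and 0 to 4.63 in wild-type libraries, were all under the filter value of 10. Arhgef11 therefore passed the filter only through naive libraries, and the size of its fall is read near 0. Its calls are given as a description. Gng2, a G protein gamma subunit, rose in memory cells of Dock2-deficient mice, at 45.4 ± 7.12 in memory and 21.3 ± 7.83 in naive cells (adjusted p = 0.0448), and passed in 6 of the 18 fits that left out 1 library each. Arhgef11 and Arhgef3 passed in all 18 such fits in Dock2-deficient cells, and in 12 and 17 of them in wild-type cells. These 18 include fits without a library of the other genotype. Such fits cannot change the averages compared, only the estimated spread and the adjustment. Over the other settings in which they were tested, Arhgef3 passed in 12 of 14 in Dock2-deficient cells (adjusted p up to 0.299) and in 11 of 14 in wild-type cells (up to 0.893). Arhgef11 passed in 13 of 13 in Dock2-deficient cells (up to 0.0423) and in 7 of 13 in wild-type cells (up to 0.0914), and Gng2 passed in 8 of 13 (up to 0.258). With scaling to reads outside ribosomal RNA and mitochondrial genes, Arhgef3 had 0.46 in Dock2-deficient cells (adjusted p = 0.299) and 0.88 in wild-type cells (adjusted p = 0.0975), and Gng2 had 0.81 (adjusted p = 0.258).

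Some of the markers of other cell types that passed the filter also differed between the states. Cd79b of the B cell list and Itgam of the myeloid list did not pass in limma. Their adjusted p was 0.291 and 0.301 in Dock2-deficient cells, and 0.757 and 0.923 in wild-type cells. Klrb1c, the 1 NK marker that passed the filter, had a log2 difference of 2.25 in Dock2-deficient cells (adjusted p = 0.114) and rose by 3.64 in wild-type memory cells (adjusted p = 0.0111). The NK sum was 0 to 4.76 in Dock2-deficient and 0 to 2.26 in wild-type naive libraries. These sums were all under the filter value, so Klrb1c passed the filter only through memory libraries. The size of its difference between states is read near 0, and its call is given as a description. Trdc, the constant region of the T cell receptor delta chain, fell by 1.52 in Dock2-deficient memory cells (adjusted p = 0.0146) and rose by 1.63 in wild-type memory cells (adjusted p = 0.0228). Between genotypes Trdc was higher by 2.73 in Dock2-deficient naive cells (adjusted p = 0.000646 in limma), 1 of the 13 genes that passed there. In memory cells its genotype difference was −0.43 (adjusted p = 0.56). Its interaction was −3.16 (adjusted p = 0.0287), 1 of the 3 that passed. The gamma delta sum was 6.89 to 14.8 in Dock2-deficient and 10.8 to 18.9 in wild-type memory libraries. In wild-type naive libraries this sum was under the filter value, so Trdc passed the filter through other groups. Its calls against wild-type naive cells are given as a description. The part of these markers in the differences between states and between genotypes was not tested.

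The pathway genes of largest difference between genotypes in memory cells, up to 2 per list, did not pass. Rhoa, the GTPase of actomyosin contraction, averaged 1057 ± 443 in Dock2-deficient and 506 ± 63.8 in wild-type memory cells (log2 difference 0.97 ± 0.24, adjusted p = 0.171), and its groups did not overlap. Pik3cg, the catalytic subunit of PI3K gamma, averaged 81.0 ± 35.5 in Dock2-deficient and 201 ± 71.7 in wild-type memory cells (adjusted p = 0.157). Nckap1l, the blood-cell subunit of the WAVE complex through which Rac drives actin branching, averaged 252 ± 109 in Dock2-deficient and 386 ± 68.8 in wild-type memory cells (adjusted p = 0.285). Brk1, another WAVE subunit, averaged 134 ± 30.8 in Dock2-deficient and 84.6 ± 19.4 in wild-type memory cells (adjusted p = 0.241). Inpp5d, the lipid phosphatase SHIP1, averaged 207 ± 119 in Dock2-deficient and 376 ± 114 in wild-type memory cells (adjusted p = 0.259). Rhog, a GTPase that binds ELMO proteins, averaged 255 ± 18.4 in Dock2-deficient and 226 ± 37.3 in wild-type memory cells (adjusted p = 0.554).

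The other exchange factors and inhibitors of largest difference were lower on average in Dock2-deficient memory cells. Fgd4, an exchange factor for Cdc42, averaged 124 ± 62.0 in Dock2-deficient and 219 ± 45.0 in wild-type memory cells (adjusted p = 0.293), and the related Fgd3 averaged 33.8 ± 9.64 in Dock2-deficient and 72.1 ± 39.3 in wild-type memory cells (adjusted p = 0.27) with groups that did not overlap. Of the GTPase-activating proteins, Srgap2 averaged 33.7 ± 18.8 in Dock2-deficient and 68.4 ± 8.71 in wild-type memory cells (adjusted p = 0.241) and Arhgap26 averaged 149 ± 69.4 in Dock2-deficient and 262 ± 69.2 in wild-type memory cells (adjusted p = 0.283).

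The genes whose log2 values were most like those of Dock2, by Pearson r over the 18 libraries among 3839 genes with a mean of at least 50, were Rprd2 (0.94), Ubn1 (0.92), 9930111J21Rik1 (0.91), Arhgef6 (0.91) and Mctp2 (0.91). Of the members, Dock8 ranked 21st in that order, Dock10 106th and Dock11 269th. With the length trend removed the first were Rprd2 (0.90) and Ddx23 (0.88). These values share library, scaling and group structure with those of Dock2 and are given as a description.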

How the data were processed

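Qiagen RNAeasy extraction and Smartseq2 library preparation, which reads whole cDNAs and keeps no strand, were used per the labels' protocols. Build mm10, bcl2fastq, FastQC and RSEM are named in the submitters' processing notes. The annotation and all versions are not given in the sources used here. What the authors deposited is a normalized signal per gene, RSEM expected counts scaled between libraries: in every library 100% of values lay on a grid of 0.01 reads divided by a library factor, and 59.5% to 69.3% of values above 0 were whole reads within 0.005. Positions came from GENCODE M21, which held 46488 of 46983 identifiers (98.9%).

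The test was limma 3.58.1 (R 4.3.3, trended empirical Bayes) on log2(value + 1), in 1 model with a mean per group over the 18 libraries, for 9437 genes at 10 or more in at least 4 libraries, with Benjamini-Hochberg adjustment over all of them and a threshold of 0.05. This scale understates changes of low genes. The script was tested on simulated data. The length trend was removed per library by loess (span 0.3) on log2 transcript length. Length was known for 99.8% of tested genes. Ratios were tested by exact permutation (scipy 1.17.1). Libraries of a group differed by more than sampling noise (chi-square per degree of freedom 4.76 to 177.5), so none was taken for a second copy of another. This does not show that they came from separate animals.

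All 10 members are named. From the other lists, genes that passed are named. Up to 2 per list and comparison with the largest change among those with a mean of at least 50 could also be named, which was done for the genotypes in memory cells only, a choice made after the values had been seen. The members, lists and tests were chosen with earlier results of these data known. Groups and replicate numbers came from the sample titles. Alternatives covered the pseudocount, the filter, the scaling, library weights, the libraries in the fit, a term for Xist, a replicate block, transcript length and leaving out each library.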

Additional observations from a re-analysis of the deposited data

Results flagged for a closer look

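The values below stood apart from the rest of their group by Dixon's test, among 40 groups of member values and 36 groups of ratios looked at. Chance alone flags about 1 in 20 groups. Wild-type memory library 4 had 844.1 normalized reads of Dock2, where the other 3 wild-type memory libraries had 399.7 to 459.4, and 335.7 of Elmo2, where the others had 78.6 to 81.9. Wild-type memory library 2 had 607.1 of Elmo1, where the others had 344.4 to 353.9. Wild-type naive library 1 had 579.1 of Dock10, where the others had 255.3 to 305.6, and 127.7 of Elmo2, where the others had 77.5 to 81.3. The ratio of Elmo1 to Elmo2 was 6.639 in Dock2-deficient naive library 3 and 2.587 to 3.25 in the others. What sets these libraries apart was not tested.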

How the results depend on the processing

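Of 780 comparisons of a result with an alternative setting, 753 kept their direction and their side of the threshold. For the limma results these include fits without a library outside the comparison, which could not change the difference. Dock2 between genotypes in memory cells, for example, stayed at −1.637 in each fit without a naive library. Ratio results were scored on the unadjusted exact permutation p, while no ratio passed after adjustment. The count is therefore a description and not a measure of how stable the results are. The count of members called was 1 in place of 0 in memory cells between genotypes with array weights and with the length trend removed (Dock2), between states in wild-type cells with quantile normalization and array weights (Rhoh), and between states in Dock2-deficient cells with scaling to reads outside ribosomal RNA and mitochondrial genes (Rhoh). Leaving out 1 library each gave 0 to 1 for the last comparison, the 1 being Dock10, and 0 for the other 4. The cause was not tested. With each library scaled to Dock8, which moves the median of all genes by 0.96 between genotypes in memory cells and by 0.72 between states in Dock2-deficient cells, directions turned: 0.16 for Dock11, 0.53 for Elmo1, 0.46 for Elmo2 and 0.50 for Rac1 between genotypes in memory cells, 0.235 for Dock2 and 0.41 for Rhoh between states in Dock2-deficient cells, and 0.0155 for the Dock2 interaction, all short of the shift of all genes. Elmo2 in memory cells also turned with array weights (0.0134), without wild-type memory library 4 (0.0262), without that library and Dock2-deficient memory library 5 (0.228), and without both with the length trend removed (0.342); over libraries left out it ranged −0.667 to 0.0262. Rhoh in memory cells turned to −0.132 with scaling to reads outside ribosomal RNA and mitochondrial genes.

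The ratio of Dock2 to Dock8 between genotypes in memory cells was −0.603 (exact permutation p = 0.0571) without the same 2 libraries, where 4 against 3 libraries cannot give less. Leaving out 1 library it was −0.774 to −0.633 in memory and −0.786 to −0.602 in naive cells (exact permutation p 0.0286 to 0.0357). Between states in Dock2-deficient cells it was 0.439 with Dock10 as the partner (exact permutation p = 0.0317), and 0.124 to 0.308 with 1 library left out. The replicate numbers were not taken to pair the libraries, since same-number r was −0.253 to 0.303 (own number highest in 4 of 9). That both Dock2-deficient libraries with Xist carry the same number is a hint of pairing from the data, not the design. With the replicate block Dock2 in memory cells was −1.64 (adjusted p = 0.12). The block moved no member across the threshold, but Arhgef3 in Dock2-deficient and wild-type cells (adjusted p = 0.0668 and 0.0537), Arhgef11 in wild-type cells (0.0516) and Gng2 (0.0693) no longer passed, while Arhgef11 in Dock2-deficient cells did (0.00548). With a term for Xist the Dock2 difference was −1.23 (adjusted p = 0.725) in memory and −0.30 (adjusted p = 0.9995) in naive cells. Over all genes the count called ranged over settings 0 to 40 between genotypes in memory cells, 3 to 19 in naive cells, 185 to 450 between states in Dock2-deficient cells, 109 to 377 in wild-type cells and 0 to 5 for the interaction. Depth limits Rac1 most, with 21.6 to 189 expected reads per library, and Elmo2 with 42.8 to 384.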
